A study of Mus musculus with 6 samples.

Results

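Erythroid miRNAs are microRNAs (miRNAs, short RNAs that pair with messenger RNAs and lower their output) that red blood cells and their precursors make in large amounts. The 5 described here, mmu-miR-451a, mmu-miR-144-3p, mmu-miR-144-5p, mmu-miR-3107-5p and mmu-miR-486-3p (the prefix for mouse is left out from here on), were chosen by name among the 1247 mouse miRNAs on an Agilent 1-colour array, and 3 of the 5 gave enough signal to be tested. The arrays carried kidney RNA of male C57BL/6 mice, a standard inbred strain, either young, at 2 months of age (3 arrays), or aged, at 20 months of age (3 arrays). The labels name no treatment or genetic change in either group. Each array had its own RNA preparation, and the labels neither tie a preparation to an animal nor say whether blood was washed out of the organ, so a p-value here reflects how preparations vary, and part of that variation may be technical.

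miR-144 and miR-451a are cut from 1 primary transcript, which the erythroid factor GATA1 switches on. The precursor of miR-451a is too short for Dicer and is cut by Argonaute2 instead, which makes this miRNA unusual among vertebrate miRNAs. miR-451a protects red cells from oxidant stress, miR-144-3p targets the antioxidant regulator Nrf2 and other erythroid transcripts, and miR-486 promotes erythroid growth and is also abundant in striated muscle. In RNA of whole organs, miR-451a and miR-144 are commonly taken as a sign of the blood that the sample holds. In bulk RNA, fewer cells of a type and less RNA per cell cannot be told apart.

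The sequences of 3 of the 5 miRNAs, from RefSeq on GRCm38.p6, are shown because both arms of miR-144 and the neighbouring miR-451a come from 1 stretch of chromosome 11. Capitals mark the seed (bases 2 to 8), which directs target pairing.
miR-451a: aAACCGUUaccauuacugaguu
miR-144-3p: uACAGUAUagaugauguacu
miR-144-5p: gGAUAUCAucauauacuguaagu
The 3 seeds differ from each other, and each is shared with 0 other entries among the 1738 mature miRNAs of the table. The hairpins follow, with the mature miRNAs in capitals, to show where each is cut from its precursor.
Mir144: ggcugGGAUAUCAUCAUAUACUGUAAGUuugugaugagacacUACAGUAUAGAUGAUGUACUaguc
Mir451a: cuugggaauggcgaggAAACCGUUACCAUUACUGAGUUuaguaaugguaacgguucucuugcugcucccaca
Mir144 lies at chr11:78073005-78073070 and Mir451a at chr11:78073170-78073241, both on the plus strand, with 99 bases between them. In Mir144 the 5p arm spans bases 6 to 28 and the 3p arm bases 43 to 62. In Mir451a the single mature miRNA spans bases 17 to 38 of 72, so it runs through the 5′ arm into the loop. miR-3107-5p is the older name of miR-486b-5p. Its gene, Mir3107, lies within the span of Mir486, and both lie within Ank1, which encodes the red cell membrane protein ankyrin 1.

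All 6 arrays lay on 1 slide, with the 3 young arrays and aged array 1 in its first row and aged arrays 2 and 3 in the second. Between 177 and 209 miRNAs were well above background per array, and the number of arrays limits the precision. Levels are log2 of the background-corrected intensity, summed over the probes of a miRNA and divided before the log by the 75th percentile, on that array, of probes detected on all arrays. A probe counts as detected where over 50% of its spots were marked well above background. All 8 kidney markers listed for the check of the tissue, among them miR-192-5p, miR-30a-5p and miR-200b-3p, were detected on all 6 arrays. Across tested miRNAs, aged array 1 had r of 0.991 to 0.993 with the 3 young arrays, and lower r of 0.983 and 0.972 with aged arrays 2 and 3.

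miR-451a, miR-144-3p and miR-3107-5p stood lower on every aged array than on every young array, by 1.27-fold, 1.65-fold and 1.47-fold on average, but 0 of the 3 passed the test across all miRNAs. The difference of miR-451a turned to 0.070 (log2) when all probes, detected or not, set the 75th percentile, with limma adjusted p = 0.877. That scale draws mostly on undetected probes: 315 of the 3105 probes were detected on all arrays, and 1025 of the 1247 miRNAs on no array. On that scale the difference of miR-144-3p was -0.31 (limma adjusted p = 0.487), that of miR-3107-5p was -0.15 (limma adjusted p = 0.749), and with normexp background correction miR-3107-5p stood at -0.29 (limma adjusted p = 0.423). Of all 193 miRNAs tested, 3.63% were called lower by limma at an adjusted p under 0.05, and 7.77% in either direction. All 3 had an unadjusted limma p under 0.05, against 15.5% of all tested miRNAs for this direction. Groups that do not overlap in this direction were seen for 20.2% of all tested miRNAs (30.6% in either direction), and the median difference of all was -0.08. miR-451a and miR-144-3p share a transcript and are not independent of each other.

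miR-451a, the dominant miRNA of mature red cells, had levels of 3.15, 2.98 and 2.98 (log2) on young arrays 1, 2 and 3. On aged arrays 1, 2 and 3 its levels were 2.76, 2.69 and 2.62. The groups did not overlap, and young array 1 was the highest of all. Young arrays averaged 3.03 ± 0.10 (SD, n = 3) and aged arrays 2.69 ± 0.07 (SD, n = 3), a difference of -0.34 ± 0.08 (log2, limma SE) with a 95% interval of -0.55 to -0.14 and a limma adjusted p of 0.0528. Over the 6 comparisons that each left out 1 array, the difference ranged from -0.38 to -0.29, and it passed the threshold without aged array 1 (limma adjusted p = 0.044). Without that array age and slide row coincide, and 27 of all 193 miRNAs were called lower against 7 as reported.

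miR-144-3p, cut from the same transcript, had levels of -1.14, -1.15 and -1.25 (log2) on young arrays 1 to 3. On aged arrays 1 to 3 its levels were -1.56, -1.63 and -2.52, so aged array 3 stood far below the other aged arrays. Young arrays averaged -1.18 ± 0.06 (SD, n = 3) and aged arrays -1.90 ± 0.53 (SD, n = 3). The difference was -0.73 ± 0.25 (log2, limma SE), with a 95% interval of -1.34 to -0.11 and a limma adjusted p of 0.124. Without aged array 3 the difference was -0.42 ± 0.08 and passed the threshold (limma adjusted p = 0.045), where 12 of all 193 miRNAs were called lower against 7 as reported. Without aged array 1 the difference was -0.90 ± 0.24 and passed too (limma adjusted p = 0.0424). Age and slide row then coincide, and 27 of all 193 miRNAs were called lower.

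miR-3107-5p, the 5p arm of the miR-486b hairpin, had levels of -3.62, -3.71 and -3.69 (log2) on young arrays 1 to 3. Its levels were -4.05, -4.53 and -4.13 on aged arrays 1 to 3, with aged array 2 the lowest. Young arrays averaged -3.68 ± 0.05 (SD, n = 3) and aged arrays -4.24 ± 0.26 (SD, n = 3). The difference was -0.56 ± 0.14 (log2, limma SE), with a 95% interval of -0.89 to -0.23 and a limma adjusted p of 0.0528. It passed without aged array 1 (-0.66, limma adjusted p = 0.0155), where age and slide row coincide and 27 of all 193 miRNAs were called lower. Its signal was dim: the first of its probes was detected on all 6 arrays, and the second on 2 young arrays and 0 aged arrays.

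**Figure D1:**
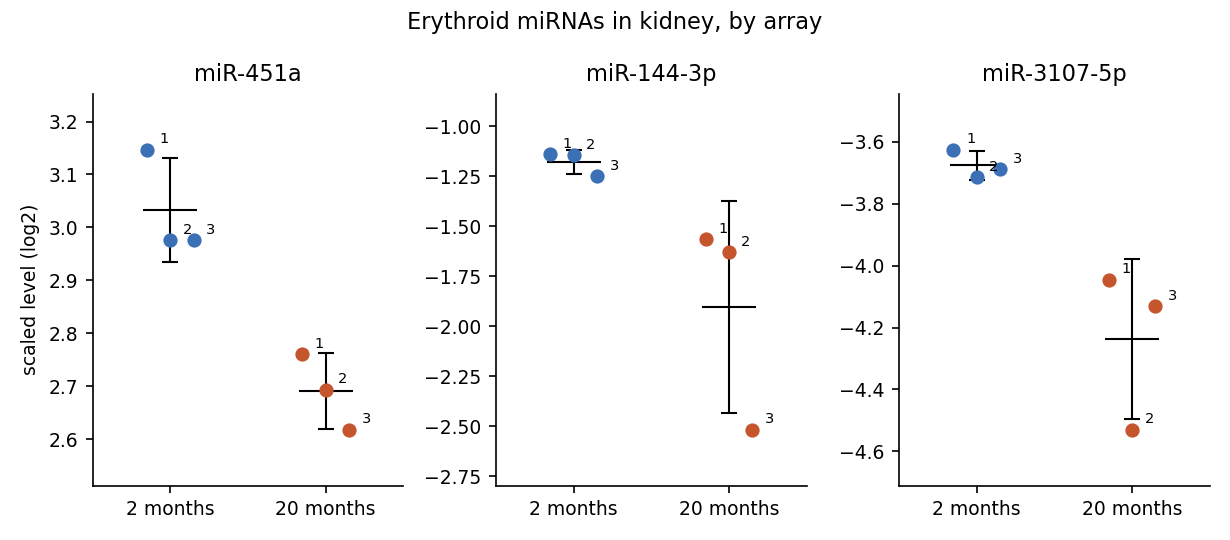
Scaled level (log2, vertical axis, a separate range in each panel) of the 3 tested erythroid miRNAs on each array, with young arrays in blue, aged arrays in red, array numbers beside the points, and bars for the mean ± SD of 3 arrays. Every aged point lies below every young point, with miR-144-3p lowest on aged array 3 (-2.52) and miR-3107-5p lowest on aged array 2 (-4.53). Scaled on all probes, detected or not, the difference of miR-451a turns to 0.070.

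The 2 remaining miRNAs were at or near background. For miR-144-5p, the opposite arm of miR-144-3p, 14 of 116 spots were well above background on the young arrays and 21 of 110 on the aged arrays. All 35 of these spots belonged to 1 of its 2 probes. That probe was detected on aged array 2 alone, where its mean intensity was 44.1, against 22.5 to 36.4 on the other 5 arrays. The scaled levels of miR-144-5p lay between -5.19 and -5.08 in young kidney and at the floor of -5.22, below which levels were not read, on all 3 aged arrays. It was not tested because it was not detected on all 3 arrays of either age. The aged levels give no more than a bound, and the young levels lie just above the floor, on arrays where it was not detected. For miR-486-3p, the opposite arm of the miR-486 hairpin, 0 of 229 spots were well above background over the 6 arrays, and its level lay at the floor on each array. The other products of the same loci gave no more signal: miR-451b, read from the strand opposite Mir451a, had 0 of 235 such spots, and miR-3107-3p had 0 of 230.

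Each of the 5 miRNAs had 2 probes of 20 spots each. Both probes of a tested miRNA gave nearly the same age difference on the log2 scale. They differed by -0.36 and -0.33 for miR-451a, by -0.76 and -0.70 for miR-144-3p, and by -0.58 and -0.54 for miR-3107-5p. Against the young mean, the low value of miR-144-3p on aged array 3 was -1.38 on the first probe and -1.31 on the second. The standard error of a probe mean from its spots was 0.01 to 0.06 (log2) for miR-451a and miR-144-3p and 0.03 to 0.09 for miR-3107-5p. Spot noise does not cover the variation between preparations. Of the 315 probes detected on all arrays, 58.7 to 80.6% differed beyond it between arrays of the same age, where noise alone would give 5%.

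Before scaling, the groups overlapped for miR-451a and miR-144-3p and not for miR-3107-5p. The summed intensity of miR-451a was 12532, 9467 and 9376 on young arrays 1 to 3, and 7934, 13284 and 7878 on aged arrays 1 to 3. That of miR-144-3p was 643, 544 and 501 on the young and 396, 664 and 224 on the aged arrays. For miR-3107-5p the intensities were 115, 91.7 and 92.4 on the young and 70.9, 88.9 and 73.2 on the aged arrays. Aged array 2 had the highest intensity of miR-451a and miR-144-3p of all arrays, and it was also the brightest array, with a 75th percentile of 2054 intensity units against 1171 to 1415 on the other 5. For miR-451a and miR-144-3p, the lack of overlap given above holds on the scale of the detected probes. It was also seen in the authors' processed values.

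A measure that a scaling constant does not move is the difference less the median difference of all tested miRNAs. It was -0.26 for miR-451a, both as reported and when scaled on all probes, where that median itself moved from -0.08 to 0.33. Choices that only shift whole arrays or change the variance model leave it at the same value by construction. Over the processing and sample choices, its range was -0.39 to -0.18 for miR-451a, -0.83 to -0.30 for miR-144-3p and -0.59 to -0.19 for miR-3107-5p.

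**Figure D2:**
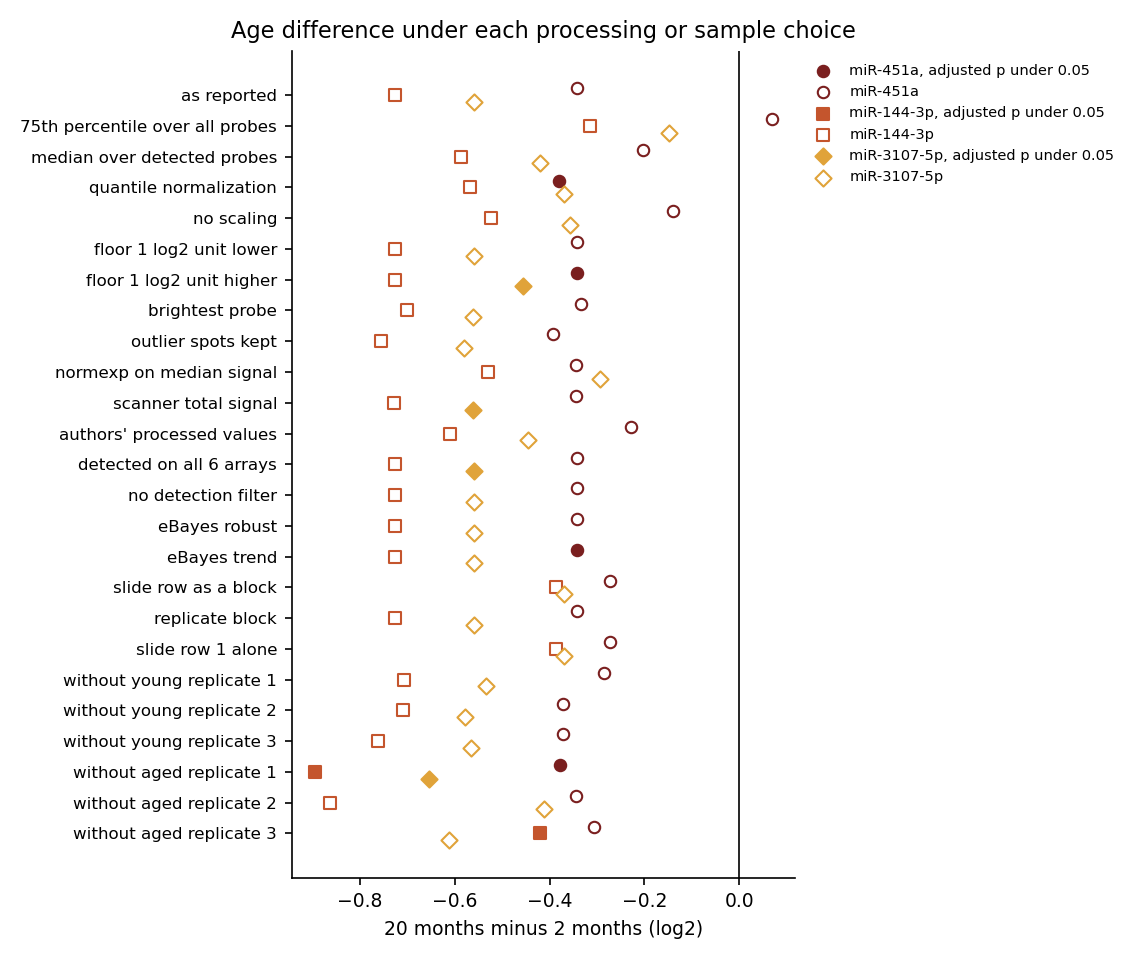
Age difference (log2, horizontal axis, aged minus young) of the 3 tested erythroid miRNAs under each choice of processing or arrays (vertical axis), with filled symbols where the limma adjusted p was under 0.05. The points lie below 0 except that of miR-451a scaled on all probes (0.070), and all 3 symbols are filled in 1 line, without aged array 1, where 27 of all 193 miRNAs were called lower against 7 as reported. In that line every young array lies in the first slide row and every aged array in the second, so age and row cannot be told apart.

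A ratio between miRNAs on the same array carries no scaling constant, and 4 such ratios were compared between ages. miR-23a-3p, which varies little with red cell content and serves as the partner of miR-451a in tests of serum for burst red cells, was the first reference. The log2 ratio of miR-451a to miR-23a-3p stood at 0.09, 0.03 and -0.13 on young arrays 1 to 3 relative to the young mean, and at -0.34, -0.44 and -0.56 on aged arrays 1 to 3. The groups did not overlap, and the difference was -0.45 (exact two-sided permutation p = 0.1, the smallest that 3 against 3 arrays allow, and 0.133 after Benjamini-Hochberg adjustment over the 4 ratios).

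miR-16-5p, a ubiquitous miRNA that is also abundant in red cells, was the other reference. The ratio of miR-451a to it stood at 0.09, 0.03 and -0.12 (log2, relative to the young mean) on young arrays 1 to 3 and at -0.23, -0.40 and -0.52 on aged arrays 1 to 3. The groups again did not overlap, and the difference was -0.38 (exact two-sided permutation p = 0.1, adjusted 0.133). Within the first slide row, which holds 1 aged array, the difference was -0.23 for this ratio and -0.34 for the ratio to miR-23a-3p.

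Between miR-144-3p and miR-451a, which come from 1 transcript, the log2 ratio on aged arrays 1 and 2 (-0.11 on each, relative to the young mean) lay close to the young range of -0.07 to 0.09. On aged array 3 it was -0.93. The difference between ages was -0.38 with that array and -0.11 without it (exact two-sided permutation p = 0.1 for all 6 arrays, adjusted 0.133). For miR-3107-5p over miR-451a, aged array 2 stood apart at -0.51, and aged arrays 1 and 3 were at -0.10 and -0.04. The groups overlapped, and the difference was -0.22 (exact two-sided permutation p = 0.2). Each of these differences thus rested mostly on 1 aged array, and not on the same one. With normexp background correction the difference of miR-3107-5p over miR-451a turned to 0.050. That correction adds an offset of 50 intensity units, which narrows the log2 differences of dim probes, and the probe means of miR-3107-5p were 26.5 to 71.4.

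**Figure D3:**
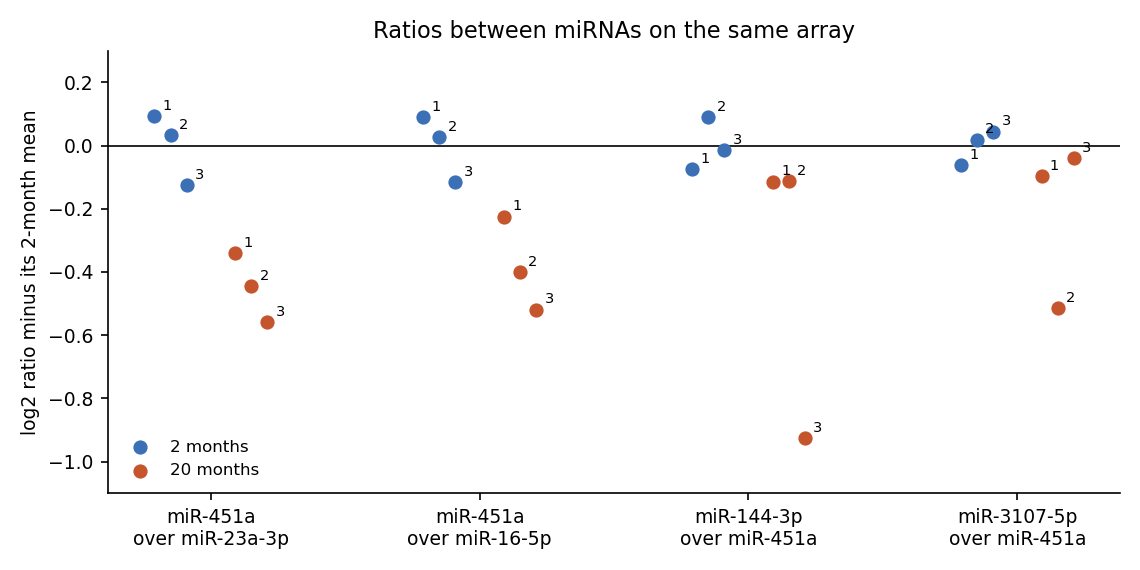
Log2 ratio of the named miRNAs on the same array, less the mean of the young arrays (vertical axis), for young (blue) and aged (red) arrays with their numbers. The ratios of miR-451a to miR-23a-3p and to miR-16-5p are lower on all 3 aged arrays, and the low point of miR-144-3p over miR-451a is aged array 3 (-0.93).

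Other miRNAs abundant in red cells stood near 0. Of a list of 8, 6 were tested and 0 were called in either direction by limma, with 0 at an unadjusted p under 0.05. Their differences ran from -0.07 to 0.07 (log2), with a median of 0.01 beside -0.08 for all tested miRNAs. miR-16-5p stood at 0.04 with a 95% interval of -0.16 to 0.23, and miR-22-3p at -0.02 with an interval of -0.21 to 0.17. miR-92a-3p and miR-25-3p, of the growth-linked clusters, stood at 0.01 and -0.07. These miRNAs are also made by many other cells, unlike miR-451a and miR-144. miR-182-5p and miR-183-5p were not well above background on any array. The list's median stayed positive under each choice of scaling, up to 0.42 when scaled on all probes. It turned to -0.02 with normexp background correction and to -0.02 with outlier spots kept.

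Of 5 miRNAs known to decline as red cells mature, 4 were tested and 0 were called by limma, with 0 at an unadjusted p under 0.05. Their median was 0.08. miR-221-3p and miR-222-3p, which repress the growth receptor Kit, stood at 0.13 ± 0.08 and 0.00 ± 0.13 (log2, limma SE). miR-155-5p stood at 0.32 ± 0.13 (limma adjusted p = 0.186) and is also a white cell marker. With the median over detected probes as the scale 1 of the 4 was called higher, where 18 of all 193 were, and with quantile normalization 2 were, where 20 of all 193 were.

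Markers of white blood cells stood on the other side of 0 from the erythroid miRNAs. All 5 tested of 6 listed had positive differences, with a median of 0.38, and 0 passed by limma, although 3 had an unadjusted p under 0.05 against 9.84% of all tested miRNAs for the higher direction. miR-223-3p, typical of neutrophils and other myeloid cells, stood at 0.55 with a 95% interval of 0.24 to 0.85. The summed level of the list was -0.32 to -0.12 (log2) on the young and 0.02 to 0.27 on the aged arrays, and 0 of the 6 were undetected throughout. The median was positive under each of the alternatives of scaling, floor, probe summary and background for which it was computed (0.13 to 0.80). With quantile normalization or with the median over detected probes as the scale, 3 of the 5 were called higher, where 20 and 18 of all 193 miRNAs were called higher, against 8 as reported. The part of white cells in the erythroid differences was not tested. The endothelial miR-126-3p stood at 0.08 with an interval of -0.11 to 0.28 (and at -0.09 under quantile normalization). Of 7 miRNAs of striated muscle, which makes miR-486, 6 were undetected on all arrays, miR-133a-3p and miR-206-3p among them, and miR-1a-3p was well above background on 4 arrays, 2 of each age.

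**Figure D4:**
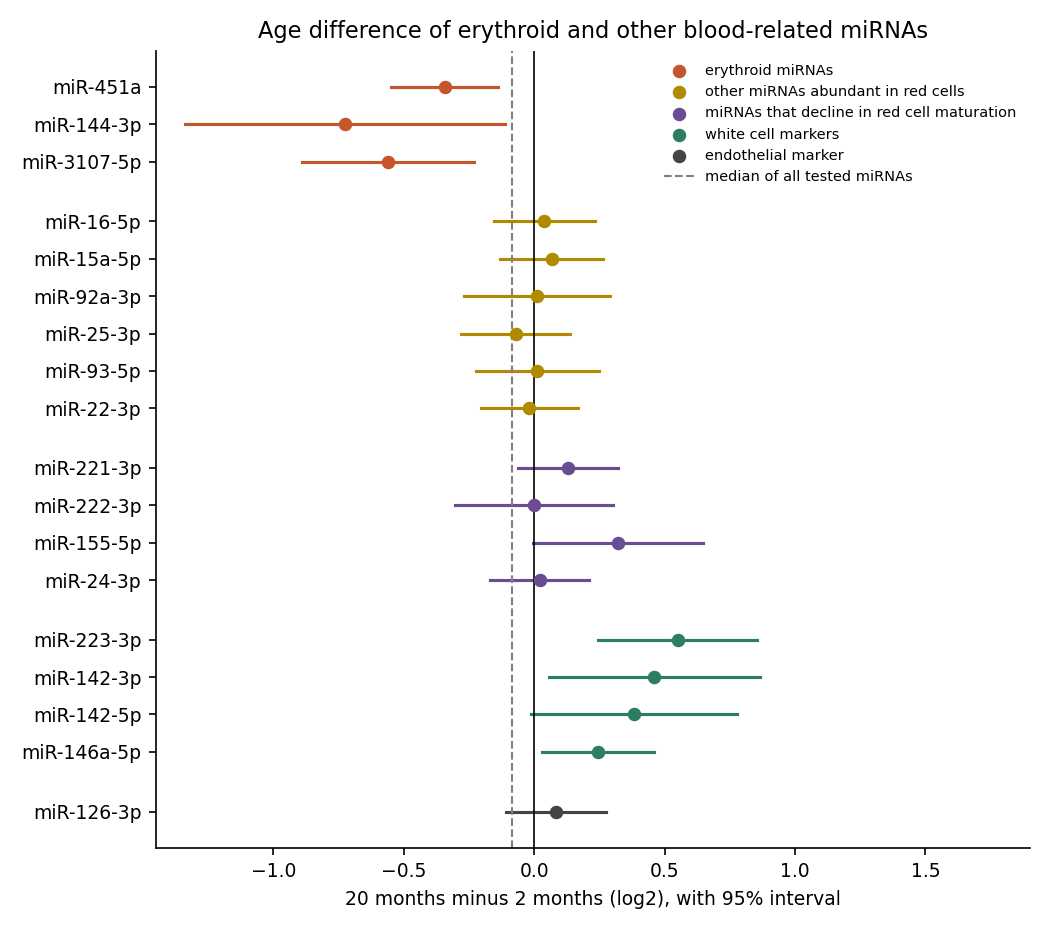
Age difference (log2, horizontal axis, aged minus young, with the 95% interval of limma) of the tested erythroid miRNAs and of the other tested miRNAs of the blood-related lists, with the median of all 193 tested miRNAs as a dashed line at -0.08. The intervals of the 3 erythroid miRNAs lie below 0 and those of the 6 other red cell miRNAs span it. Scaled on all probes, detected or not, the difference of miR-451a turns to 0.070.

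The 3 tested erythroid miRNAs varied together over the 6 arrays, as a description that includes the difference between ages and the scaling that miRNAs of an array share. Pearson's r was 0.85 between miR-451a and miR-144-3p, 0.85 between miR-451a and miR-3107-5p, and 0.58 between miR-144-3p and miR-3107-5p (Spearman's rho 0.94, 0.94 and 0.89, n = 6 arrays). For deviations from the mean of each age, r was 0.58, 0.21 and -0.28. With 3 arrays per age, no relation within an age can be tested.

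Over the 6 arrays the 5 tested miRNAs most like miR-451a were miR-143-3p, miR-148a-3p, miR-551b-3p, miR-141-3p and miR-96-5p, with Pearson's r of 0.96, 0.96, 0.94, 0.94 and 0.91. These were the 5 of 190 other tested miRNAs with r over 0.9, where the median of the 190 was 0.22. Their own age differences were -0.27, -0.39, -1.49, -0.38 and -0.49 (log2). For deviations from the mean of each age, the 5 most like miR-451a were miR-143-3p, miR-96-5p, miR-148a-3p, miR-669l-5p and miR-27a-3p, with r of 0.88, 0.81, 0.75, 0.74 and 0.72. No miRNA of the red cell lists was among them.

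The miRNAs most like miR-144-3p are named here after their values were seen. For deviations from the mean of each age, the white cell markers miR-142-5p and miR-142-3p followed miR-144-3p most closely (r = 0.97 and 0.96). On aged arrays 1 to 3 the levels of miR-142-3p were -1.47, -1.57 and -2.09 (log2), and those of miR-142-5p were -2.50, -2.48 and -3.05. Aged array 3 was thus the lowest aged array for both, as for miR-144-3p. Against the young mean, however, they stood there at 0.08 and 0.01, where miR-144-3p stood at -1.34. Their Pearson's r with miR-144-3p over all 6 arrays was -0.18 for miR-142-3p and -0.10 for miR-142-5p. Over all 6 arrays, miR-362-3p, miR-468-3p, miR-96-5p, miR-669n and miR-32-3p were the 5 most like miR-144-3p, with Pearson's r of 0.94, 0.93, 0.93, 0.92 and 0.90.

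Slide row and age overlapped in part. Where aged array 1 is left out they coincide, so the calls made without that array cannot tell age from row. With row as a block, an estimate that rests on aged array 1, the difference was -0.27 ± 0.13 for miR-451a, -0.39 ± 0.30 for miR-144-3p and -0.37 ± 0.17 for miR-3107-5p (log2, limma SE), with limma adjusted p of 0.307, 0.572 and 0.288. The differences of the 3 arrays of the first row that are young from the 1 that is aged are the same values, with limma adjusted p of 0.167, 0.0637 and 0.0671 when only that row was used, the single aged array being assumed to vary like the young ones. The miRNAs were thus lower on aged array 1 within the row it shares with the young arrays, by less than the mean over all aged arrays.

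In the authors' processed values, which are on a log2 scale, the means of the aged arrays were also lower. The difference was -0.23 ± 0.10 for miR-451a, -0.61 ± 0.28 for miR-144-3p and -0.44 ± 0.11 for miR-3107-5p (limma SE), with limma adjusted p of 0.294, 0.304 and 0.109. Those values were 5.71, 5.50 and 5.48 for miR-451a on young arrays 1 to 3 and 5.34, 5.43 and 5.25 on aged arrays 1 to 3, again without overlap.

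Across all 193 miRNAs 15 were called by limma, 8 higher and 7 lower. The balance moved with the scaling, to 20 higher and 2 lower under quantile normalization, to 18 and 3 with the median over detected probes, and to 10 and 0 in the authors' values (39 at an unadjusted p under 0.05).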

How the data were processed

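Spot intensity, corrected for background by Feature Extraction 11.5.1.1 (array design 046065, build mm9 per the file headers), was deposited unscaled, with flags for spots well above background, outliers and saturation (0 saturated spots). In the deposited table of the authors' processed values (log2), each array differed from the log of its scanner file's total gene signal by a single constant, and the sources used here do not say how it was chosen. From the spots, outliers were left out, the 20 spots of a probe averaged, arrays scaled to their 75th percentile over 315 probes detected on all arrays, probes summed per miRNA, and log2 values below -5.22 set to that floor.

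The 193 miRNAs detected on all 3 arrays of at least 1 age were tested with limma 3.58.1 in R 4.3.3 (lmFit, eBayes, Benjamini-Hochberg), group being the single term. Arrays of an age differed beyond spot noise for 58.7 to 80.6% of the 315 probes detected on all arrays. The procedure was tested on simulated data. The 5 miRNAs and the lists were chosen with earlier results of these data known. Named miRNAs are the 5, the list members, the ratio reference miR-23a-3p, and the 5 most like miR-451a by either correlation. Those most like miR-144-3p were not planned and were named after their values were seen. The planned normexp, with an offset of 50, used gMedianSignal in place of gMeanSignal. That change, the ratios between erythroid miRNAs and single-probe values were added after seeing the data. Names follow the array design; 3 of 5 matched the RefSeq miRNA table.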

Additional observations from a re-analysis of the deposited data

How the results depend on the processing

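With the 75th percentile over all probes, most of them undetected, miR-451a turned to 0.070. The ratio of miR-3107-5p to miR-451a turned to 0.050 with normexp, whose offset of 50 intensity units narrows the log2 differences of dim probes. Over 26 alternatives, the differences of miR-144-3p and miR-3107-5p kept their sign. They shrank to -0.31 and -0.15 on the all-probe scale, and that of miR-3107-5p also to -0.29 with normexp, -0.36 without scaling and -0.37 with quantile normalization. miR-451a shrank to -0.20 with the median over detected probes and -0.14 without scaling. miR-451a passed the threshold in 4 (quantile normalization, -0.38; a floor 1 unit higher and eBayes with trend, -0.34 each; and 1 array left out), and miR-144-3p in 2, both with 1 array left out. miR-3107-5p passed in 5 (a floor 1 unit higher, -0.46, where its value on aged array 2 is the floor; the scanner's total signal, -0.56; detection on all 6 arrays, -0.56; its second probe alone, -0.54; and 1 array left out). The number called lower, 0 as reported, was 2 with the higher floor and 1 each with quantile normalization, the total signal, detection on all 6 arrays and eBayes with trend, where 6, 2, 3, 7 and 7 of all tested miRNAs were called lower. Leaving out 1 array gave -0.38 to -0.29 for miR-451a, -0.90 to -0.42 for miR-144-3p, -0.66 to -0.41 for miR-3107-5p, and 0 to 3 called lower. The ratio of miR-451a to miR-16-5p was -0.23 with slide row as a block or within row 1. Calls over all miRNAs, 15 as reported, were 2 without scaling, 4 with normexp, 9 with the total signal, 6 with no detection filter, 5 with row as a block, 22 with quantile normalization, and, with 1 array left out, 6, 5 and 8 without young arrays 1 to 3 and 39, 9 and 23 without aged arrays 1 to 3 (27, 4 and 12 of these lower).

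With the replicate number as a block the differences were unchanged at -0.34, -0.73 and -0.56 (limma adjusted p = 0.0789, 0.116 and 0.0789), and 3 miRNAs were called over all. Same-numbered arrays shared only a number: their deviations correlated at 0.12, -0.58 and 0.31, and not every array correlated best with its own number. Normexp on gMeanSignal was not run.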
